A study of Arabidopsis thaliana with 48 samples.

Results

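The 21 nt microRNAs (miRNAs) that AGO1 held in wild-type flower buds were set against those in the total small RNA of the same tissue. Of the 48 deposited tables, 4 were used for this: every 21 nt table of wild-type plants, by their labels, with no choice made on measured values. The AGO1-IP group was small RNA recovered after immunoprecipitation of AGO1 (replicates 1 and 3). The total group was small RNA from whole extracts (replicates 1 and 2), a part of the input to the immunoprecipitation by the study's design text. Both groups came from closed buds of untreated Arabidopsis thaliana of genotype Col0, grown on soil in long days, and the design describes them as biological duplicates. The sources used here give neither plant age nor the antibody. The series addressed how mutations of atprmt5 affect small RNA accumulation and loading into AGO1. Its 21 nt libraries of the atprmt5-2 and atprmt5-6 mutants served here to estimate the spread between replicates and entered the mean level by which sequences were chosen for testing. miR843, miR5024-3p and miR5637 averaged under 5 RPM in both wild-type groups and were tested through mutant libraries. Whole buds were used, so the cell types in which AGO1 held a miRNA cannot be told apart, and a mock immunoprecipitate was not analysed here, so the level of carry-over is unknown.

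AGO1 is the main effector of plant miRNAs: it takes 1 strand of a short RNA duplex, the guide, and uses it to find messenger RNAs to cut or to keep from translation. The other strand, the passenger or miRNA*, is normally discarded and degraded. Arabidopsis AGO1 is known to prefer strands that begin with uridine, AGO7 is specialised for miR390, and AGO2, which favours adenosine, is known to bind miR393b-3p. Each precursor hairpin carries a strand on its 5′ arm (5p) and one on its 3′ arm (3p), and which arm holds the guide differs between families.

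The tables name 428 mature miRNAs, which comprise 350 distinct sequences. Values of identical copies were added up, and each sequence is called by the first of its names. Reads of 1 or more libraries were found for 215 sequences in AGO1-IP and for 204 in total small RNA. The 98 sequences with a mean of at least 5 reads per 1000000 (RPM) over the 12 libraries of all genotypes were tested.

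The sequences on which the results turn are shown with bases 2 to 8, the seed, in capitals. The first letter is the 5′ base that AGO proteins hold in a pocket. The guides that took up most of the AGO1-IP pool or stood highest in it against total small RNA all begin with u, and the first pair shares a seed.
miR166a-3p: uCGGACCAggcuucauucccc
miR165a-3p: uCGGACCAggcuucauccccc
miR396b-5p: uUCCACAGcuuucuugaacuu
miR159b-3p: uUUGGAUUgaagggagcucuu
miR839-5p: uACCAACCuuucaucguuccc
miR161.1: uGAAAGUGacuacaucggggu
miR162a-3p: uCGAUAAAccucugcauccag
The sequences shown next stood lowest in AGO1-IP by log2 difference in RPM. They begin with g, c or a, and most of them are the strand opposite a known guide. The sequence that follows them, miR162a-5p, begins with u and stood at -5.46, against -5.49 for miR165a-5p.
miR166a-5p: gGACUGUUgucuggcucgagg
miR165a-5p: gGAAUGUUgucuggaucgagg
miR167a-3p: gAUCAUGUucgcaguuucacc
miR861-3p: gAUGGAUAugucuucaaggac
miR158a-5p: cUUUGUCUacaauuuuggaaa
miR168a-3p: cCCGCCUUgcaucaacugaau
miR5017-5p: aUUUGUUAcuaauuuggaaug
A last pair is shown because each is known from another Argonaute.
miR390a-5p: aAGCUCAGgagggauagcgcc
miR393b-3p: aUCAUGCGaucucuuuggauu

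All sequences were read from the RefSeq assembly TAIR10.1 at the positions of its annotation, which matched all 428 names. The miR166a-3p sequence lies at chr2:19176241-19176261 on the plus strand in the MIR166a precursor, with its opposite strand miR166a-5p at chr2:19176128-19176148. The same guide is encoded by 7 precursors, the others being MIR166b on chromosome 3 and MIR166c to MIR166g on chromosome 5. miR165a-3p lies at chr1:78932-78952 on the minus strand in MIR165a and again in MIR165b on chromosome 4. miR396b-5p is at chr5:13611808-13611828 (plus strand), miR159b-3p at chr1:6220813-6220833 (plus) and miR168a-3p at chr4:10578737-10578757 (plus). miR390a-5p is at chr2:16061971-16061991 (plus) and miR393b-3p at chr3:20691778-20691798 (plus). All lie in annotated MIR genes, whose transcripts are non-coding.

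AGO1-IP held a larger share of miRNAs than total small RNA. Annotated miRNAs made up 74.8% and 74.6% of 21 nt reads in the AGO1-IP libraries, against 25.2% and 26.7% in the total libraries. The AGO1-IP libraries held 6697535 and 7597354 reads of 21 nt, against 571191 and 1318103 in total. One read was worth 0.149 and 0.132 RPM in AGO1-IP, against 1.75 and 0.759 RPM in total, so low levels were resolved more finely in AGO1-IP. Because of the unequal miRNA share, every value below has 2 possible scales. RPM relates a miRNA to all 21 nt reads. Reads per 1000000 miRNA reads, here the miRNA scale, relate it to the other miRNAs.

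The scale set the sign of many differences: of the 98 sequences, 46 stood above 0 in RPM and below 0 on the miRNA scale, 44 below 0 and 8 above 0 on both. On the RPM scale limma called 18 sequences higher (18.4%) and 23 lower (23.5%) in AGO1-IP than in total at an adjusted p under 0.05, with a median log2 difference of 0.17. On the miRNA scale it called 3 higher (3.06%) and 66 lower (67.3%), with a median of -1.33. All 23 sequences called lower in RPM were also lower on the miRNA scale, while of the 18 called higher in RPM 3 were called lower and 12 were not called. Of the 23 lower in RPM, 17 averaged under 5 RPM in AGO1-IP and passed the filter through other libraries. Other scalings of the RPM fit split the calls differently, with 13 higher and 27 lower by edgeR with TMM, 12 and 25 by DESeq2 size factors, and 38 and 21 after centring on the median sequence. Without AGO1-IP replicate 3 the higher calls numbered 11. With 2 libraries against 2, a two-sided exact permutation test of a single value cannot go below p = 0.333, so calls rest on the spread pooled over all sequences and genotypes.

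**Figure D1:**
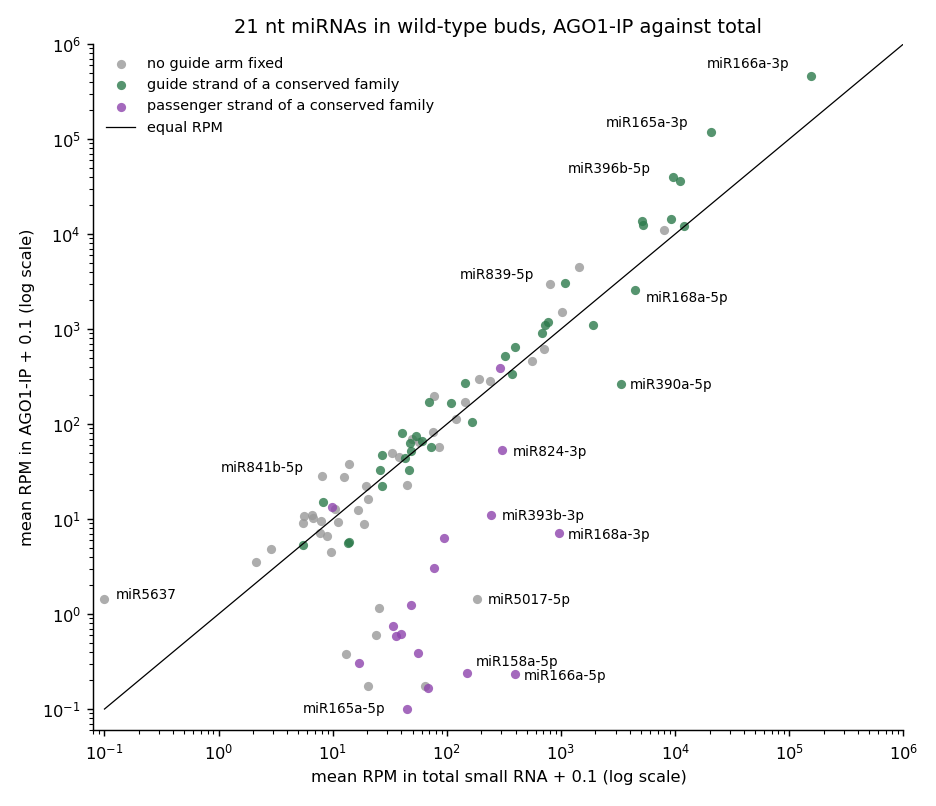
Mean RPM of each of the 98 tested sequences in AGO1-IP (vertical axis) and in total small RNA (horizontal axis), both on log scales after adding 0.1, n = 2 libraries each, coloured by strand class; the line marks equal RPM. Passenger strands form a cloud far below the line, and miR390a-5p, at 265 RPM in AGO1-IP and 3340 RPM in total, is the guide farthest below it.

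The AGO1-bound pool was dominated by the guides of class III HD-ZIP transcripts, miR165 and miR166, regulators of organ polarity and meristem function. miR166a-3p was at 461185 and 466796 RPM in the AGO1-IP libraries, against 144603 and 164952 RPM in the total libraries. Its RPM was 3.00-fold higher in AGO1-IP (log2 difference 1.59, SE 0.21, limma adjusted p = 9.63e-05). Among miRNA reads alone its share was nearly level, at 62.1% ± 0.663 in AGO1-IP and 59.5% ± 3.20 in total (SD, n = 2 each; log2 difference 0.06, SE 0.06, limma adjusted p = 0.335).

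miR165a-3p, which carries a single substitution against miR166a-3p (C17U, read from miR165a-3p to miR166a-3p and counted from the 5′ end), stood apart from it. It reached 119459 and 115494 RPM in AGO1-IP, against 17485 and 23616 RPM in total. Its share of miRNA reads was 15.7% ± 0.342 in AGO1-IP and 7.89% ± 1.36 in total (SD, n = 2 each), with a log2 difference of 1.01 (SE 0.13, limma adjusted p = 9.55e-05). Of the 98 sequences it was the most abundant of the 3 called higher on both scales. Together the miR165 and miR166 guides took 77.6% and 78.1% of miRNA reads in AGO1-IP, against 64.2% and 70.6% in total.

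miR396b-5p, a guide of growth-regulating factor transcripts, was the next most abundant. It was at 40416 and 39481 RPM in AGO1-IP, against 8326 and 10769 RPM in total (log2 difference 2.08, SE 0.19, limma adjusted p = 5.04e-06). On the miRNA scale it was higher by a log2 difference of 0.55 (SE 0.22, limma adjusted p = 0.046), a call that was lost without either AGO1-IP library or without total replicate 1 (limma adjusted p up to 0.219). The remaining call on both scales was miR5637, with 1.79 and 0.921 RPM in AGO1-IP and 0 reads in total. Its level lies under the floor of 3 reads over both total libraries, 1.59 RPM, so no fold is given. Its RPM call was lost without AGO1-IP replicate 1 (limma adjusted p = 0.0612), with a pseudocount of 5 (0.118), by edgeR (0.071), with TMM (0.105) and with DESeq2 size factors (0.254). Its call on the miRNA scale was lost with a pseudocount of 5 (0.119) and by edgeR (0.223).

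The 10 most abundant sequences made up 97.1% and 97.3% of miRNA reads in AGO1-IP, and 9 of them were also among the 10 most abundant of total small RNA. Next in AGO1-IP were miR159b-3p and miR159a, guides of GAMYB-type transcripts, miR162a-3p, a guide of DCL1, miR403-3p, a guide of AGO2, miR319a, a guide of TCP transcripts, and miR780.2. miR159b-3p was at 35255 and 37530 RPM in AGO1-IP, against 11623 and 10362 RPM in total (log2 difference 1.73, SE 0.23, limma adjusted p = 8.64e-05). miR162a-3p was at 13193 and 14050 RPM, against 5310 and 4875 RPM (1.42, SE 0.31, limma adjusted p = 0.00323). miR403-3p was at 12304 and 12693 RPM in AGO1-IP, against 5840 and 4628 RPM in total (1.27, SE 0.20, limma adjusted p = 0.000351). These 3 did not pass the test on the miRNA scale, where they stood at 0.20, -0.11 and -0.26. The 2 groups' RPM did not overlap for any of the 3.

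miR319a and miR780.2 did not pass in RPM and were lower among miRNA reads. miR319a had 14043 and 10299 RPM in AGO1-IP, against 12430 and 11636 RPM in total. It took 1.63% ± 0.351 of miRNA reads in AGO1-IP and 4.64% ± 0.399 in total (SD, n = 2 each; log2 difference -1.53, limma adjusted p = 3.49e-05). For miR780.2 the shares were 1.49% ± 0.130 in AGO1-IP and 3.11% ± 0.652 in total (log2 difference -1.05, limma adjusted p = 0.000359).

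**Figure D2:**
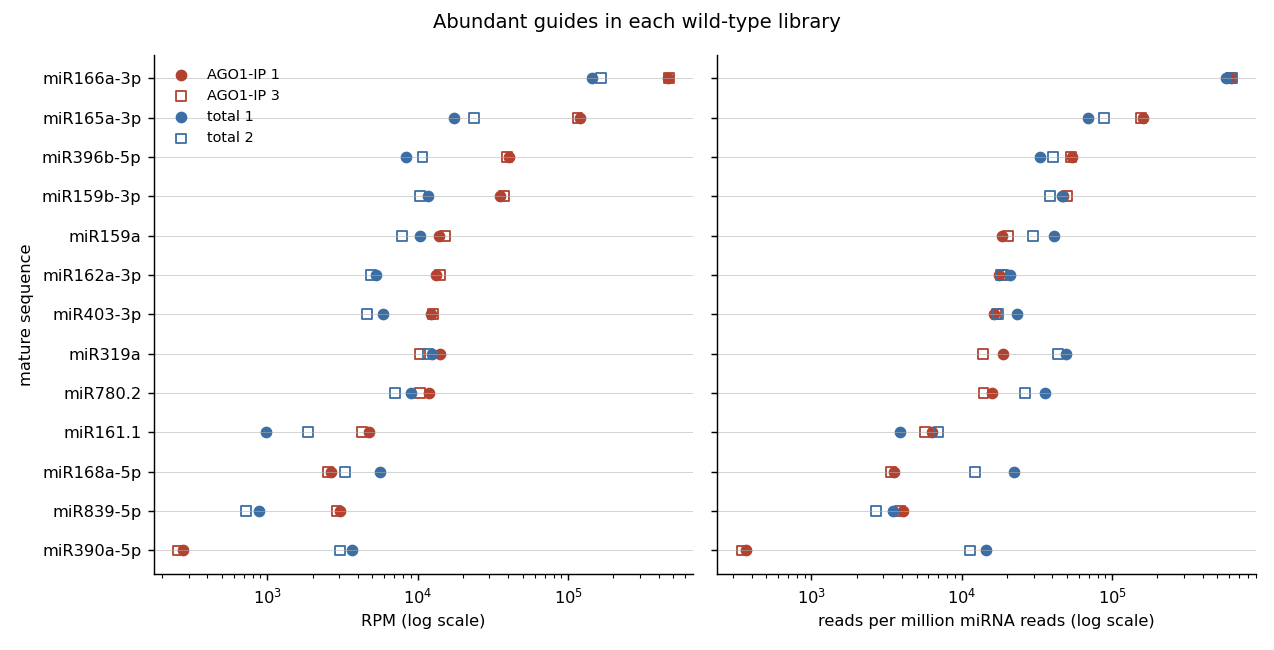
Level of 13 guides in each wild-type library, in RPM (left) and on the miRNA scale (right), on log axes; red symbols are AGO1-IP replicates 1 and 3 and blue symbols total replicates 1 and 2. In RPM most guides lie further right in AGO1-IP, while on the miRNA scale miR165a-3p keeps the gap and miR319a, miR168a-5p and miR390a-5p lie lower in AGO1-IP.

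miR168a-5p, the guide of AGO1's own messenger RNA, was below its level in total without a call in RPM. It was at 2662 and 2520 RPM in AGO1-IP, against 5592 and 3286 RPM in total, and the groups did not overlap. Of the 98 tested sequences, 34 stood lower without overlap. The log2 difference of -0.73 (SE 0.36) did not pass in RPM (limma adjusted p = 0.134) and passed with the replicate block (limma adjusted p = 0.0495). On the miRNA scale it was lower by a log2 difference of 2.25 (SE 0.40, limma adjusted p = 0.000884). Other abundant guides further below the rest were miR157a-5p, a guide of SPL transcripts of phase change, at -0.76 in RPM (limma adjusted p = 0.0948, and 0.0439 with the replicate block), and miR171a-3p, a guide of GRAS transcripts, at -0.62 (limma adjusted p = 0.0861).

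The 2 miRNAs listed here as known from another Argonaute were lower in AGO1-IP. That list is not complete, so it does not show how miRNAs held by other Argonautes stand in general. miR390a-5p, which with AGO7 starts trans-acting siRNA production from TAS3, was at 274 and 256 RPM in AGO1-IP, against 3636 and 3044 RPM in total. Its mean was 12.6-fold lower in AGO1-IP (log2 difference -3.65, SE 0.26, limma adjusted p = 1.23e-06), and it was the single conserved guide of 37 tested that was called lower in RPM. It took 0.0355% of miRNA reads in AGO1-IP and 1.29% in total. miR393b-3p, the strand opposite the auxin receptor guide miR393b-5p, was at 10.3 and 11.6 RPM in AGO1-IP, against 305 and 185 RPM in total (log2 difference -4.32, SE 0.33, limma adjusted p = 2.07e-06). miR393b-3p is a passenger as well, and other passengers were lower still. Both miRNAs begin with adenosine, and both were lower on the miRNA scale too.

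Guide and passenger strands of conserved families lay far apart. Of 37 conserved guides tested, 12 were higher and 1 lower in RPM (median log2 difference 0.46), beside 18.4% and 23.5% over all 98. On the miRNA scale 2 were higher and 22 lower (median -1.07), beside 3.06% and 67.3%. Of the 48 passenger strands of these families in the tables, 17 passed the filter on low values. For 11 of them the mean in AGO1-IP was under 5 RPM, so they passed through total and mutant libraries, and no count of calls is given for passengers. Over all their sequences, tested or not, passenger reads numbered 0.714 and 0.640 per 1000 guide reads in AGO1-IP, against 13.4 and 10.8 in total. Without miR165 and miR166 they numbered 3.61 and 3.27 per 1000 guide reads, against 37.6 and 36.4.

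The lowest strands were near the limit of counting in AGO1-IP. miR166a-5p was at 0 and 0.263 RPM there, 2 reads in all, against 389 and 395 RPM in total. That is a ratio of 2811 in favour of total, with an exact 95% interval of 775 to 23253 that covers counting error only. miR165a-5p had 0 reads in AGO1-IP, against 54.3 and 35.7 RPM in total. miR158a-5p had 2 reads in AGO1-IP, miR167a-3p and miR861-3p had 1 each, and in total their levels ranged from 53.1 to 159 RPM. The ratio for miR167a-3p was 893 (exact 95% interval 157 to 35560) and that for miR861-3p was 916 (161.2 to 36456).

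Passengers with more reads in AGO1-IP gave firmer values. miR168a-3p, opposite the AGO1 guide, was at 7.91 and 6.05 RPM in AGO1-IP, against 972 and 935 RPM in total (log2 difference -6.91, SE 0.41, limma adjusted p = 3.28e-07). miR396b-3p was at 3.43 and 2.50 RPM in AGO1-IP, against 87.5 and 65.2 RPM in total (-4.28, limma adjusted p = 1.13e-06). The called passenger with the smallest difference was miR824-3p, opposite a guide of the MADS-box transcript AGL16. It was at 55.8 and 49.9 RPM in AGO1-IP, against 345 and 257 RPM in total (-2.47, SE 0.47, limma adjusted p = 0.0015).

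The passengers not called were miR170-5p, which has the same sequence as miR171a-5p, and miR408-5p. miR170-5p was at 403 and 369 RPM in AGO1-IP, against 306 and 273 RPM in total (log2 difference 0.41, SE 0.29, limma adjusted p = 0.298). It begins with uridine, and so do the passengers miR162a-5p and miR403-5p, which were called lower in RPM. miR408-5p, at 17.9 and 8.82 RPM in AGO1-IP and 14.0 and 5.31 RPM in total, begins with adenosine and varied more between replicates than between fractions.

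Sequences that begin with uridine took a larger part of the AGO1-IP pool. Over all sequences, tested or not, U-starting ones took 99.9% of miRNA reads in both AGO1-IP libraries, against 97.2% and 97.7% in total. Without miR165 and miR166 they took 99.5% and 99.6%, against 92.1% and 92.3%. The groups did not overlap on either measure.

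The other bases took less of these remaining miRNA reads in AGO1-IP. A-starting sequences took 0.387% and 0.323% in AGO1-IP, against 5.24% and 4.87% in total. C-starting sequences took 0.112% and 0.107%, against 1.81% and 1.91%. G-starting sequences took 0.0050% and 0.0031%, against 0.889% and 0.937%.

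Single sequences varied within each base. Of 66 tested sequences that begin with U, 17 were higher and 4 lower in RPM, beside 18.4% higher and 23.5% lower over all 98. Of 16 that begin with A, 1 was higher (miR5637) and 8 lower, and of 9 that begin with C, 0 were higher and 4 lower. The 7 that begin with G all averaged under 5 RPM in AGO1-IP and were tested through other libraries, so no count of their calls is given. These counts depend on the filter, since the mean in AGO1-IP was under 5 RPM for 4, 7, 3 and 7 of the U-, A-, C- and G-starting sequences, which therefore passed through levels elsewhere.

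First base and strand class overlapped without coinciding. No G-starting conserved guide was tested, and 6 of the 7 tested G-starting sequences were passengers. Of 30 U-starting conserved guides, 12 were higher and 0 lower in RPM. Among guides that begin with another base, miR172a and miR172c, A-starting guides of AP2-like floral regulators, stood at -0.48 and 0.12, and miR408-3p, an A-starting guide of copper protein transcripts, at 0.63. These 3 did not pass in RPM. Among miRNAs with no guide arm fixed here, 5 of 33 U-starting ones were higher and 2 lower, beside 18.4% higher and 23.5% lower over all 98. Of 8 A-starting ones 1 was higher (miR5637) and 4 were lower. Those 4 averaged under 5 RPM in AGO1-IP and passed through other libraries, and miR5637 passed through mutant libraries. This count therefore follows the filter and cannot be set against that of U-starting ones.

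**Figure D3:**
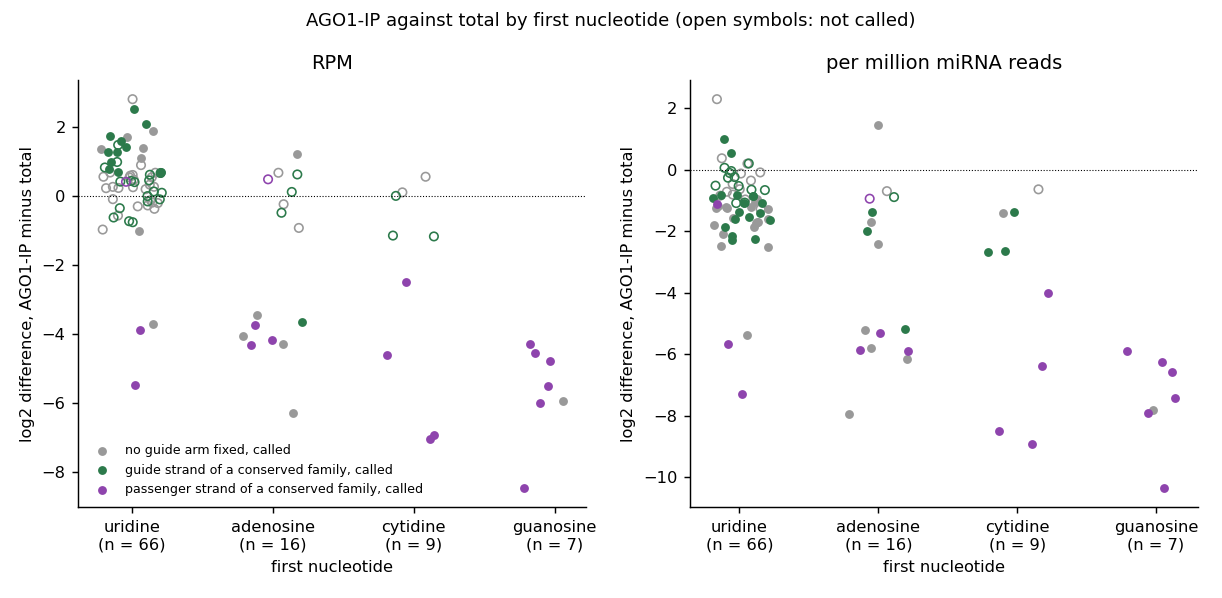
Log2 difference of AGO1-IP minus total by first nucleotide, in RPM (left) and on the miRNA scale (right); each point is a tested sequence, filled where limma called it, and coloured by strand class. The 7 guanosine-first sequences lie below 0 on both scales, and all of them passed the filter through libraries other than wild-type AGO1-IP. Those of the other bases lie on both sides of 0 in RPM, and the whole cloud shifts down on the right.

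The U-starting sequences that were lower were miR162a-5p, miR403-5p, miR5653 and miR771. miR162a-5p was at 0.448 and 0.132 RPM in AGO1-IP, against 57.8 and 53.1 RPM in total (log2 difference -5.46, SE 0.47, limma adjusted p = 4.03e-06). miR403-5p had 3 reads in AGO1-IP, against 30 in total. All 4 are annotated as 22 or 24 nt, so their 21 nt reads are not the annotated form.

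The ratio of the 2 arms of a precursor within a library does not depend on the miRNA share, except through the pseudocount of 1 RPM where an arm is near 0. Of 93 precursors with both arms named, 42 distinct ones reached a summed mean of 5 RPM with no arm annotated under 21 nt. limma called a shift of the 5p to 3p ratio between AGO1-IP and total for 27 of them (64.3%), 13 towards the 5p arm and 14 towards the 3p arm. Where the family's guide arm was known, 21 shifts were towards the guide and 2 towards the passenger, and 4 precursors had no guide arm fixed. For 17 of the 21 and both exceptions, each arm had at least 3 reads in total, and the statements below keep to these unless said. Arms annotated as 22 nt, such as miR393b-5p, miR162a-5p and miR403-5p, entered with their 21 nt reads alone. In MIR166e, for one, the passenger had 0 reads in AGO1-IP and 1 in total, so its called change of 2.00 towards 3p rests on the RPM of the guide and that 1 read. Over all 27 calls the favoured arm began with U in 24 and the disfavoured arm in 4. That count includes 6 calls with under 3 reads of an arm in total. Most tested precursors, called or not, have an arm that begins with U, so having one does not set the called ones apart.

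Some precursors changed their majority arm between the pools. MIR393b gave 68.5% and 65.6% of its reads from the guide arm, 5p, in AGO1-IP, against 6.45% and 6.87% in total (log2 change of the 5p to 3p ratio 4.69, SE 0.40, limma adjusted p = 9.77e-07). MIR171b gave 92.8% and 93.6% from its 3p guide arm in AGO1-IP, against 29.1% and 27.5% in total (towards 3p by 4.90, SE 0.32, limma adjusted p = 8.4e-08). MIR824 gave 55.2% and 56.1% from its 5p guide arm in AGO1-IP, against 15.8% and 17.9% in total (2.61, SE 0.48, limma adjusted p = 0.000586). In these 3 the passenger was the larger arm of 21 nt reads in both total libraries and the smaller arm in both AGO1-IP libraries. The MIR393b guide is annotated as 22 nt, so its share leaves out reads of the annotated length. Guide reads of MIR393b and MIR171b also rest on an even split with MIR393a and MIR171c.

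The arms of MIR171b show the pattern in sequence, since the favoured strand begins with u and the other with a.
miR171b-3p: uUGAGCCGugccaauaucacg
miR171b-5p: aGAUAUUAgugcgguucaauc

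In MIR168a the guide arm already led in total and became nearly exclusive in AGO1-IP. Its 5p arm gave 99.4% and 99.5% of reads in AGO1-IP, against 72.6% and 64.4% in total (log2 change 6.18, SE 0.38, limma adjusted p = 5.93e-08). MIR167a, which yields a guide of auxin response factor transcripts, gave 7901 guide and 1 passenger reads in AGO1-IP, against 642 and 118 in total (6.61, SE 0.36, limma adjusted p = 2.77e-08). The largest changes towards 3p were those of MIR166a (8.94, SE 0.34) and MIR165a (7.95, SE 0.44), limma adjusted p = 2.4e-09 and 3.02e-08, with the passenger at 2 and 0 reads in AGO1-IP. Guide levels of precursors that share a guide rest on the authors' even split of its reads.

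MIR162a, MIR403, MIR396a and MIR396b also moved towards the guide, by log2 changes of 6.37, 5.14, 5.46 and 6.36. Both arms of MIR162a and of MIR403 begin with U, so there the favoured arm does not differ from the other in its first base. MIR168b moved by 3.90 and MIR157c by 3.86 towards 5p. MIR472 moved towards its 3p guide, which starts phased siRNAs from disease resistance gene transcripts, by 4.01 (SE 1.22, limma adjusted p = 0.0136), on 66 and 10 reads of that arm in AGO1-IP and total. That call was lost without AGO1-IP replicate 3 or without total replicate 1 (limma adjusted p = 0.0865 and 0.113).

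**Figure D4:**
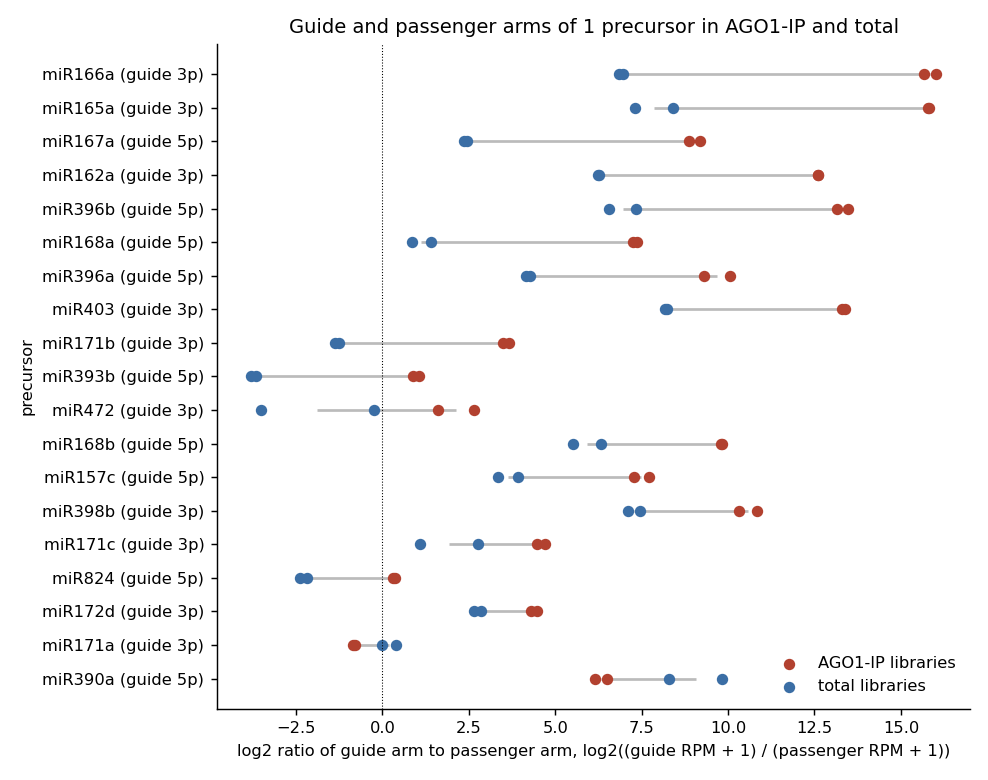
Log2 ratio of guide arm to passenger arm in each library, log2((guide RPM + 1) / (passenger RPM + 1)), for the 19 called precursors with a known guide arm and at least 3 reads of each arm in total; red points are AGO1-IP libraries, blue points total libraries, and grey lines join the means. In 17 precursors the AGO1-IP points lie to the right of the total points, and in MIR171a and MIR390a they lie to the left.

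The exceptions were MIR171a and MIR390a. MIR171a gave 36.7% and 35.4% of its reads from the 3p guide arm in AGO1-IP, against 57.0% and 49.6% in total, a change towards 5p of 1.01 (SE 0.34, limma adjusted p = 0.0224). Its 5p sequence is the U-starting strand shared with MIR170, and the authors split its reads evenly between the 2 precursors. On that split the 5p arm was the larger one in both AGO1-IP libraries. Which precursor gave those reads cannot be told, so neither can the larger arm of MIR171a.
miR170-5p: uAUUGGCCugguucacucaga
miR171a-3p: uGAUUGAGccgcgccaauauc
MIR390a moved towards 3p by 2.74 (SE 0.59, limma adjusted p = 0.00166), although its 5p arm still gave 99.3% and 99.6% of reads in AGO1-IP, against 99.7% and 99.9% in total. The 3p arm had 10 reads in AGO1-IP and 4 in total, so this change rests on few reads of that arm.

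Precursors with no guide arm fixed added 4 calls. MIR5017 gave 1.64 and 1.05 RPM of its 5p strand in AGO1-IP, against 215 and 148 RPM in total, while its U-starting 3p strand had 17 reads in AGO1-IP and 4 in total. It moved towards 3p by 6.38 (SE 0.72, limma adjusted p = 1.18e-05), and the pool in AGO1-IP was split evenly, with 50.0% and 57.1% from 5p. MIR841a gave 78.5% and 68.9% from its U-starting 5p arm in AGO1-IP, against 20% and 11.1% in total (3.28, SE 0.64, limma adjusted p = 0.000812), on 3 reads of that arm in total. MIR861 had 1 read in AGO1-IP from both arms together, so its call (5.52) reports the absence of miR861-3p there and not a favoured 5p strand. MIR851 moved towards 5p by 1.59 (SE 0.54, limma adjusted p = 0.0224) on 2 reads of its 3p arm in total.

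The proportions of closely related guides differed between AGO1-IP and total small RNA. Within families, 18 pairs of tested sequences other than passengers were compared, a comparison added after the values had been seen, and limma called a change of their ratio in 10 (55.6%). How many mismatches the mapping allowed is not given in the sources used here, so reads of relatives that differ by 1 base may be uncertain in their assignment, the more so for the rarer of a pair.

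miR396a-5p and miR396b-5p differ in the last base (G21U).
miR396a-5p: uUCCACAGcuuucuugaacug
miR396b-5p: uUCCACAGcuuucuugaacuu
The ratio of the first to the second was 0.0295 and 0.0302 in AGO1-IP, against 0.109 and 0.0576 in total (log2 change -1.41, SE 0.30, limma adjusted p = 0.00155). miR159a and miR159b-3p also differ in the last base (A21U), and their ratio was 0.396 and 0.403 in AGO1-IP, against 0.892 and 0.762 in total (-1.05, SE 0.17, limma adjusted p = 0.000229). In both pairs the relative that ends in u held the larger share in AGO1-IP. Between miR172a and miR172c, which differ in the last base as U21G, the ratio was 0.591 and 0.662 in AGO1-IP, against 0.844 and 1.09 in total, and the change of -0.60 (SE 0.26) did not pass (limma adjusted p = 0.0661, and 0.0146 with the replicate block). There the relative that ends in u is miR172a, the lower one in AGO1-IP.

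Other pairs differed within the sequence. The ratio of miR165a-3p to miR166a-3p was 0.259 and 0.247 in AGO1-IP, against 0.121 and 0.143 in total (log2 change 0.94, SE 0.11, limma adjusted p = 3.9e-05). miR159b-3p gained on miR159c (U20C) by 1.82 (SE 0.27, limma adjusted p = 0.000139). miR170-3p gained on miR171a-3p, from which it differs as U12C and U14C, by 1.40 (SE 0.28, limma adjusted p = 0.000895). The offset guides miR161.1 and miR161.2, both of pentatricopeptide repeat gene transcripts and cut from 1 precursor, stood at a ratio of 10.1 and 9.31 in AGO1-IP, against 1.37 and 4.83 in total (1.91, SE 0.42, limma adjusted p = 0.00157). The total libraries differ by more than the 2 AGO1-IP libraries for that pair, and without total replicate 1 or 2 the change was between 1.01 and 2.82.

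**Figure D5:**
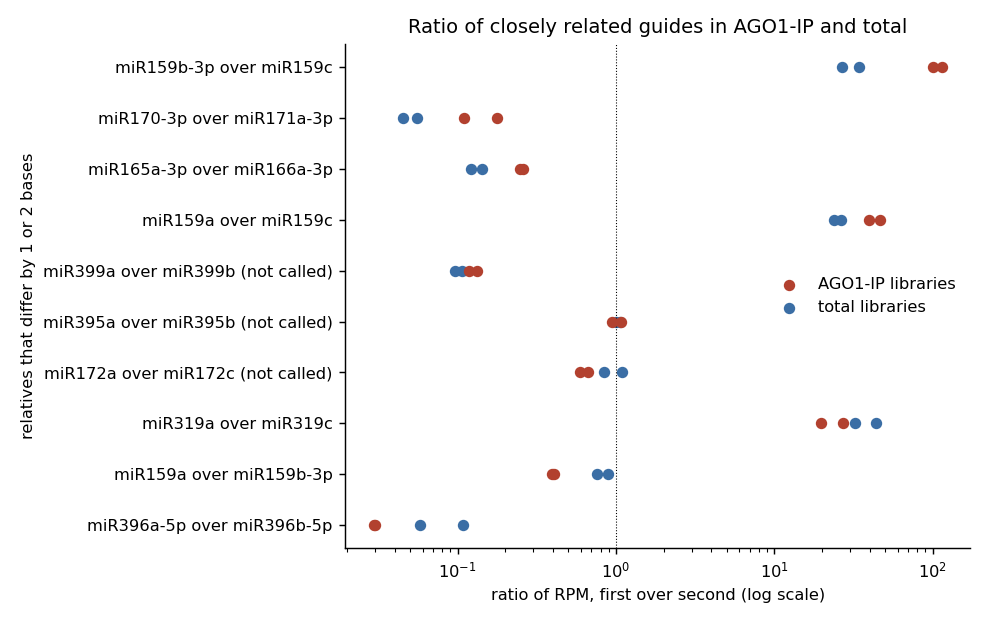
Ratio of RPM of 2 relatives, the first named over the second, on a log axis, for the 10 pairs that differ by 1 or 2 bases; red points are AGO1-IP libraries and blue points total libraries. Red and blue points stand apart in the called pairs, such as miR165a-3p over miR166a-3p, and overlap for miR395a over miR395b, which was not called (log2 change -0.03).

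Calls on pairs were less stable for miR159a over miR159c (0.78, limma adjusted p = 0.034), lost without any 1 of the 4 wild-type libraries, and for miR319a over miR319c (-0.70, limma adjusted p = 0.0388) and miR1886.1 over miR1886.2 (-1.04, limma adjusted p = 0.0272), each lost without AGO1-IP replicate 3, without total replicate 2 and with the replicate block (limma adjusted p = 0.0791 for both). miR171a-3p fell against miR171b-3p, a guide of the same GRAS transcripts offset on the precursor, by a log2 change of 1.89 (SE 0.32, limma adjusted p = 0.000273). Pairs not called included miR399a over miR399b, miR858a over miR858b and miR780.1 over miR780.2, with changes of 0.29 (SE 0.25), 0.42 (SE 0.25) and 0.09 (SE 0.22).

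By what they target, groups of guides are set beside 18.4% higher and 23.5% lower over all 98 sequences in RPM, and 3.06% and 67.3% on the miRNA scale. Guides of the GAMYB, TCP and growth-regulating factor group gave 4 higher and 0 lower of 7 in RPM (median 0.68, against 0.17 over all 98), and 1 higher and 5 lower on the miRNA scale. Besides miR396b-5p and miR159b-3p the higher ones were miR159a, at 13944 and 15138 RPM in AGO1-IP, against 10368 and 7893 RPM in total, and miR319c. The call of miR159a (log2 difference 0.68, limma adjusted p = 0.0164) was lost without either AGO1-IP library or without total replicate 2, and that of miR319c (0.70, limma adjusted p = 0.0409) with the replicate block (limma adjusted p = 0.0527). Of the 2 HD-ZIP III guides both were higher in RPM, and miR165a-3p on the miRNA scale as well.

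Guides of the silencing machinery gave 2 higher of 3 in RPM, miR162a-3p and miR403-3p, with miR168a-5p as the one below 0. Of the boundary and GRAS group 2 of 4 were higher. These were miR171b-3p, at 165 and 172 RPM in AGO1-IP, against 70.0 and 68.3 RPM in total (log2 difference 1.27, limma adjusted p = 0.00323), and miR170-3p (0.78, limma adjusted p = 0.0419, and 0.0955 with the replicate block). miR164a, a guide of CUC transcripts that set organ boundaries, was at 21.9 and 22.5 RPM in AGO1-IP, against 36.8 and 16.7 RPM in total, and was not called (limma adjusted p = 0.766). On the miRNA scale the boundary and GRAS group had 0 higher and 2 lower, and the silencing group 0 and 1.

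The auxin guides gave 0 calls of 4 in RPM and 4 lower on the miRNA scale. miR167a-5p was at 1122 and 1061 RPM in AGO1-IP, against 874 and 577 RPM in total, the highest of the group (log2 difference 0.62, SE 0.24, limma adjusted p = 0.0613). miR393a-5p, annotated as 22 nt, was at 42.1 and 46.1 RPM in AGO1-IP, against 54.3 and 31.1 RPM in total. The phase change and flowering guides gave 0 calls of 3 in RPM and 3 lower on the miRNA scale. The 20 nt guides miR156 and miR158a-3p were not measured, since their main form is absent from tables of 21 nt reads.

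The starters of phased siRNAs gave 1 higher, miR161.1, and 1 lower, miR390a-5p, of 5 in RPM, and 0 and 4 on the miRNA scale. miR161.1 was at 4722 and 4248 RPM in AGO1-IP, against 984 and 1869 RPM in total (log2 difference 1.72, SE 0.29, limma adjusted p = 0.000537). miR173-5p, annotated as 22 nt, had 1.34 and 1.32 RPM in AGO1-IP, against 0 and 3.03 RPM in total, and was not tested. Neither of the 2 tested guides of MYB transcripts was called in RPM, and both were lower on the miRNA scale. One of them, miR858a, was at 309 and 255 RPM in AGO1-IP, against 317 and 156 RPM in total (limma adjusted p = 0.488).

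Nutrient guides gave 2 higher of 8 in RPM, a share near the 18.4% over all sequences. Both were miR399 forms, which target the phosphate regulator PHO2. miR399b was at 637 and 649 RPM in AGO1-IP, against 420 and 376 RPM in total (log2 difference 0.69, limma adjusted p = 0.0349), and miR399a stood at 0.99 (limma adjusted p = 0.0124). The copper-responsive miRNAs had the widest errors of the table: of the 6 largest standard errors of the RPM fit, 5 belonged to miR398a-5p, miR397b, miR398b-3p, miR408-3p and miR408-5p, between 0.95 and 1.41, and the other one to miR841b-5p. In RPM 37 of the 98 tested sequences stood higher without overlap of the groups. Among them was miR398b-3p, the guide of copper superoxide dismutase transcripts, at 3562 and 2491 RPM in AGO1-IP, against 1189 and 957 RPM in total. Its log2 difference of 1.48 (SE 1.27) did not pass (limma adjusted p = 0.392) and did so with the replicate block (limma adjusted p = 2.91e-05) or in the wild-type libraries alone (0.00212). miR408-3p was at 216 and 120 RPM in AGO1-IP, against 137 and 78.9 RPM in total, higher in replicate 1 of both fractions.

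The blocked fit also called miR827, a phosphate guide, higher (log2 difference 0.99, limma adjusted p = 0.00912, against 0.0797 without the block). It called miR395a, a C-starting sulfate guide, lower (-1.17, limma adjusted p = 0.00912, against 0.0613). miR395a was at 6.42 and 4.87 RPM in AGO1-IP, against 14.0 and 13.7 RPM in total. On the miRNA scale the nutrient guides had 0 higher and 3 lower of 8.

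Among miRNAs numbered 770 to 870, mostly young and little conserved, 3 of 26 with no guide arm fixed here were higher and 3 lower in RPM. Over all 98 sequences these shares were 18.4% and 23.5%. Of the lower ones, miR829-5p and miR861-3p averaged under 5 RPM in AGO1-IP and passed the filter through other libraries. On the miRNA scale 0 of the 26 were higher and 17 lower, beside 3.06% and 67.3% of all sequences. miR839-5p was at 3060 and 2886 RPM in AGO1-IP, against 884 and 720 RPM in total (3.71-fold higher, limma adjusted p = 5.71e-06). miR851-5p was at 206 and 193 RPM, against 59.5 and 95.6 RPM (1.39, SE 0.29, limma adjusted p = 0.00254), and miR823 was at 30.9 and 24.6 RPM, against 10.5 and 14.4 RPM (1.10, limma adjusted p = 0.0479). The largest difference above 0 of the whole RPM fit, 2.81 for miR841b-5p, was not called (SE 1.09, limma adjusted p = 0.0629). Its total libraries held 0 and 15.9 RPM, against 33.1 and 23.3 RPM in AGO1-IP.

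Of the late-annotated miRNAs numbered 1000 and above, 14 of 131 passed the filter on low values. In RPM 2 were higher and 4 lower, beside 18.4% and 23.5% over all 98. On the miRNA scale 1 was higher and 8 lower, beside 3.06% and 67.3%. miR5012 was at 34.6 and 40.4 RPM in AGO1-IP, against 14.0 and 13.7 RPM in total (log2 difference 1.37, SE 0.35, limma adjusted p = 0.0086), a call lost without AGO1-IP replicate 3. The lower ones were miR5017-5p, miR5643a, miR5653 and miR8166, which all averaged under 5 RPM in AGO1-IP. They passed the filter through other libraries, and miR5637, 1 of the 2 higher, passed through mutant libraries. These counts therefore depend on the filter and do not describe late-annotated miRNAs as a class. miR5643a had 1 read in AGO1-IP and 40 in total, a ratio of 303 in favour of total (exact 95% interval 51.3 to 12249).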

How the data were processed

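Small RNAs of wild-type closed buds were sequenced from AGO1-IP and from total extracts. The authors deposited RPM tables for each read length, and those of 21 nt were used. Per the submitters' processing notes, Trimmomatic 0.36, Bowtie2, SAMtools 1.9 and TAIR10 were used, with roles, adapters and mismatches not given in the sources used here. Every deposited RPM value was a whole multiple of 1 read within 0.01 reads, so read numbers were recovered. The denominator was taken as all 21 nt reads, and a missing value as 0 reads. The deposited RPM of identical mature sequences, spread evenly over copies by the authors, were summed. Wild-type replicates were not repeats of 1 library, since their counts differed beyond sampling noise (chi-square over its degrees of freedom 68.2 in AGO1-IP and 39.0 in total).

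The main test was limma 3.58.1 (R 4.3.3) on log2(RPM + 1), which understates changes of low miRNAs. It used 12 libraries in 6 groups, which leave 6 residual degrees of freedom, with a trend of variance on intensity and without a block, with Benjamini-Hochberg adjustment over all sequences of mean RPM of at least 5. The same fit was run on reads per 1000000 miRNA reads and on log2((5p + 1) / (3p + 1)). Mutant libraries entered the spread and the mean of the filter, and the fit assumes that all groups vary alike. Floors are 3 reads over a group, and intervals are exact at 95%. Alternatives were the pseudocount, the filter, the unit of a feature, wild-type libraries alone, edgeR 4.0.16, DESeq2 1.42.0, centring, no trend, a replicate block and each wild-type library left out. A minimum of 3 reads per arm in total and the comparison of relatives were added after the data were seen. The fit was tested on simulated data.

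The labels do not state whether replicates of the 2 fractions are paired. Deviations from group means correlated between fractions by 0.167 in wild type, 0.424 in atprmt5-2 and 0.772 in atprmt5-6. The wild-type value is low and does not establish a pairing there. Replicates are numbered 1 and 2 in total and 1 and 3 in AGO1-IP by their labels. The deposited name of the second total library carries the number 3 instead. By the design text total was a part of the input, so the fractions may be paired, which the main fit did not take into account. The replicate block assumed that the second library of each fraction forms a pair.

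Named miRNAs were the 10 largest calls per direction in RPM, the calls on both scales (up to 12 per direction), the 10 most abundant of each fraction, the 8 precursors with the largest arm change per direction, a set of 16 miRNAs and examples from 14 lists by target or class. The members and lists were chosen with earlier results of these data known.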

Additional observations from a re-analysis of the deposited data

How the results depend on the processing

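The number of sequences called higher in RPM, 18, was 38 after centring on the median sequence and lay between 11 and 18 when a wild-type library was left out. The number called lower in RPM, 23, was 35 with no filter and 15 with a filter of 20 RPM, which tested 261 and 71 sequences. The number called higher on the miRNA scale, 3, was 6 with no filter and between 2 and 5 when a library was left out. It was 6 when the miRNA reads of every library were counted without miR165 and miR166 for the scale. Every other count, arms and relatives included, stayed within 1.5 times its value. With the replicate block 19 were higher and 27 lower in RPM, 4 and 74 on the miRNA scale, and 28 arm ratios changed. Besides calls given above, the block gave or ended those of miR395b, miR841b-5p, miR391-5p, miR397b, miR408-3p, miR408-5p, miR781a, miR843, miR867, miR1886.2 and the arms of MIR160a, MIR391 and MIR841b, and it changed no other call. Reversed signs occurred among named sequences for 4 that were not called in the RPM fit: miR319a (0.028 with each name its own feature, 0.016 by edgeR, 0.46 after centring, which was called, and -0.22 to 0.22 with a library left out), miR393a-5p (-0.15 with each name its own feature, -0.16 with TMM, -0.10 with DESeq2 size factors, -0.30 to 0.49 with a library left out), miR164a (0.30 after centring, -0.70 to 0.39 with a library left out) and miR858a (-0.18 to 0.84 with a library left out). The cause was not tested. Total replicate 1, with 571191 reads of 21 nt, limits what can be said of sequences under 5.25 RPM there.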
